A study of Mus musculus with 6 samples.

Results

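The 6 chemokine genes described here are Cxcl1, Cxcl2, Cxcl3, Cxcl5, Pf4 and Ppbp, which code for the CXC chemokines of mouse that attract neutrophils or are stored in platelets. They were taken by symbol, through the RefSeq accession given for each array probe, and each of the 6 genes had 1 probe. Of these, 3 were bright enough to be tested, out of 25780 genes tested on the array. Islets of male C57Bl/6N mice were dispersed and the cells kept in culture for 72 h. Control cells received no exosomes. Cells labelled exoNOD were given exosomes, which are small secreted vesicles, at 50 µg/ml; their source was the CD4+CD25- T lymphocytes of the diabetes-prone NOD strain. Each group had 3 arrays, from 3 experiments with different islet and exosome preparations. The control cultures received no vesicles of any kind, so the comparison is between exosomes and their absence, not between exosomes of 2 sources. The age of the mice is not given in the sources used here.

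CXC chemokines are small secreted proteins that guide leukocytes. Cxcl1, Cxcl2, Cxcl3, Cxcl5 and the processed product of Ppbp carry the ELR amino acids ahead of the CXC cysteines and act on the receptor Cxcr2 of neutrophils. Pf4, platelet factor 4, lacks ELR, binds heparin-like sugar chains and is released with the Ppbp product from platelet granules; macrophages also transcribe it. In many tissues Cxcl1, Cxcl2, Cxcl3 and Cxcl5 are induced by interleukin 1, tumour necrosis factor and interleukin 17 through NF-kB, and their short-lived mRNAs are further controlled by decay. In the RefSeq gene order on chromosome 5 the genes lie in 1 cluster, in the order Cxcl5, Ppbp, Pf4, Cxcl3, Cxcl15, Cxcl1, Cxcl2, with no other gene listed between them.

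Pf4 and Cxcl5 had higher signals on every exoNOD array than on any control array, 7.69-fold and 8.48-fold on average. Of all genes, 14.6% had all 3 exoNOD arrays above all 3 controls. Cxcl1 was 1.93-fold higher on average, but its groups overlapped. In limma without a block, 0 of the 3 tested members passed an adjusted p of 0.05, and 2 of the 3, Cxcl5 and Pf4, had an unadjusted p under 0.05; over all genes 0.105% passed and 16.6% had an unadjusted p under 0.05. With the replicate number as a block, 3 of the 3 passed and were higher, against 6.93% of all genes that rose and 8.76% that passed in either direction. Cxcl3 was above background on part of the arrays, and Cxcl2 and Ppbp on 0 of 6, so these members were not tested. The filter asked for a signal above background throughout 1 group or the other, which favours genes that are high in it, although the 3 tested members were above background on all 6 arrays.

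Each array held 43020 spots for transcripts, of which 78.1% to 81.8% were well above background and 0 were saturated. Signals are given as processed scanner intensities. A level is the log2 signal less that of the 75th percentile on the same array (812 to 890 in signal), and a change is the exoNOD mean level less the control mean level, over 3 arrays each. The median change over all genes was 0.035. By scan time, exoNOD replicate 1 was read with the 3 control arrays, and exoNOD replicates 2 and 3 were read apart, with no control array. Group and scan therefore cannot be told apart for those 2 arrays. The difference between exoNOD replicate 1 and the controls read with it is given for Cxcl1, Cxcl5 and Pf4, and not for the other genes. Whether arrays with equal replicate numbers share an islet preparation is not stated; the blocked values take them as pairs. In total RNA of mixed cells, fewer cells of a type and less RNA per cell cannot be told apart.

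The promoters of the inducible members are shown because Cxcl1, Cxcl2 and Cxcl3 carry the same 9 NF-kB letters close to the start of transcription, whereas the windows of Pf4 and Ppbp do not. Each line gives the 150 bases before the start in RefSeq, build GRCm38.p6, plus strand, and capitals mark the letters GGAATTTCC or TATAAAA. The locations are chr5:90891095-90891244 for Cxcl1, chr5:90903749-90903898 for Cxcl2, chr5:90785951-90786100 for Cxcl3, chr5:90772285-90772434 for Pf4 and chr5:90768368-90768517 for Ppbp. The table used here matched 5 of the 6 members, and no promoter is given for Cxcl5.
Cxcl1: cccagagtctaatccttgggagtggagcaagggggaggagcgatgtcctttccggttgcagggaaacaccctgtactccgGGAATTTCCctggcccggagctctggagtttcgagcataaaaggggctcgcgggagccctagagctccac
Cxcl2: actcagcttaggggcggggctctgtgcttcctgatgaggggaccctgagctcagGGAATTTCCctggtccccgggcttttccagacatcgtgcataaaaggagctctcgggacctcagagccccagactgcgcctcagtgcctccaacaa
Cxcl3: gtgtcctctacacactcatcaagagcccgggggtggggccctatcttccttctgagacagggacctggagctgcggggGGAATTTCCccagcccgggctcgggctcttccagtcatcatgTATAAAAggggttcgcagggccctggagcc
Pf4: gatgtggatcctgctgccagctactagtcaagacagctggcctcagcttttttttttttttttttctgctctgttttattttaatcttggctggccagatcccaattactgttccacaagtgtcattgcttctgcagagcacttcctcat
Ppbp: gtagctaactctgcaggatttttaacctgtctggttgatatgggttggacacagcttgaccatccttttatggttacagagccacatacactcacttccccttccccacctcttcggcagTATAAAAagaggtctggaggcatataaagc

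GGAATTTCC, searched on both strands, lay 70 to 62 bases before the start in Cxcl1, 96 to 88 in Cxcl2 and 72 to 64 in Cxcl3. TATAAAA, searched on the strand of the gene, lay 30 to 24 bases before the start in Cxcl3 and in Ppbp. The letters were chosen with these sequences in view. Over 27025 promoter windows of 300 bases, 0.322% held GGAATTTCC and 3.56% held TATAAAA. A match describes letters and is not a measured binding site.

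Cxcl1, known as KC in mouse, is a main ligand of Cxcr2. Its signals were 16.1, 19.8 and 81.3 on control arrays 1, 2 and 3, and 29.3, 51.3 and 140 on exoNOD arrays 1, 2 and 3. Control 3 lay above exoNOD 1 and 2, so the groups overlapped, and the third array was the highest of its group in both. The control arrays spanned 5.26-fold and the exoNOD arrays 4.67-fold, both more than the 1.93-fold difference between the groups. The level was −4.84 ± 1.32 in control and −3.89 ± 1.13 in exoNOD cells (mean ± SD, n = 3 each), a log2 change of 0.95 (SE 0.699, limma adjusted p 0.503). Within pairs of equal number exoNOD was higher in 3 of 3, at 1.77-fold, 2.59-fold and 1.57-fold, and with the replicate block the adjusted p was 0.0189; 29.0% of all genes were higher in all 3 pairs. Without pair 2 the blocked adjusted p was 0.101. Against the 3 controls of its own scan, exoNOD replicate 1 had a log2 difference of −0.049, so the direction turned there. Over 20 other settings Cxcl1 passed in 4, each of them with the replicate block. Leaving out 1 array without a block moved the change from 0.34 (without exoNOD replicate 3) to 1.71 (without control replicate 3).

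Cxcl2, known as MIP-2, had signals of 4.75, 2.91 and 9.14 in control and 8.22, 13.1 and 9.07 in exoNOD cells, not well above background on any array. No fold is given, since both groups are below background. Cxcl3, a further ligand of Cxcr2, had 2.96, 2.90 and 13.1 in control and 25.4, 13.4 and 76.5 in exoNOD cells. It was well above background on control 3 and on exoNOD 1 and 3 only. In the third pair, where both arrays measured Cxcl3, exoNOD was 5.33-fold higher. The lowest exoNOD array and control 3 were nearly level, at 0.939 after scaling. With dim probes kept, the log2 change of Cxcl3 was 2.56 (SE 0.792), with a limma adjusted p of 0.288 without and 0.00897 with the block. Control 1, control 2 and exoNOD 2 enter that value with signals not well above background.

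Cxcl5, known as LIX, is made by epithelial and stromal cells, among others, and brings neutrophils into inflamed tissue. Its signals were 20.9, 25.8 and 146 on the control arrays and 220, 265 and 930 on the exoNOD arrays. The lowest exoNOD array stood 1.41 times above the highest control after scaling, and the groups did not overlap; 14.6% of all genes had all 3 exoNOD arrays above all 3 controls. Control 3 was again far above the other controls, which span 7.29-fold. The level was −4.30 ± 1.59 in control and −1.22 ± 1.12 in exoNOD cells, a log2 change of 3.09 (SE 0.773, unadjusted p 0.00344, limma adjusted p 0.152). Without control replicate 3 the change was 4.0 and the adjusted p 0.0235, and without exoNOD replicate 3 it was 2.44 with an adjusted p of 0.398; leaving out any other array gave adjusted p-values of 0.0726 to 0.407. With normexp background correction the change was smaller, 1.84 (SE 0.485, limma adjusted p 0.0293), and the median change of all genes was 0.349. The pairs differed 10.2-fold, 10.3-fold and 5.81-fold, and with the block Cxcl5 rose with an adjusted p of 7.17e-05. Within the first scan the log2 difference was 2.32.

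Pf4 had signals of 79.4, 35.5 and 94.7 on the control arrays and 602, 265 and 857 on the exoNOD arrays. Array 2 was the lowest of its group in both, and the lowest exoNOD array was 2.57 times the highest control after scaling. The level was −3.72 ± 0.81 in control and −0.77 ± 0.87 in exoNOD cells, a log2 change of 2.94 (SE 0.481, unadjusted p 0.000208, limma adjusted p 0.0732). The pairs differed by nearly the same factor, 7.38-fold, 7.45-fold and 8.25-fold, and with the block Pf4 rose with an adjusted p of 6.62e-06, the lowest p of the 25780 genes. Within the first scan the log2 difference was 3.19, as large as over all arrays. Without control replicate 3 the unblocked adjusted p was 0.0414, and without exoNOD replicate 1 it was 0.0426; leaving out any of the other 4 arrays gave 0.144 to 0.233. With normexp background correction the change was smaller, 2.07 (SE 0.407, limma adjusted p 0.000286), and the median change of all genes was 0.349.

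Ppbp, whose product is cut to the neutrophil attractant NAP-2 and which is stored with Pf4 in platelets, had signals of 2.87, 2.80 and 7.77 in control and 9.0, 3.07 and 5.12 in exoNOD cells. None of the 6 arrays read it well above background, so no fold is given.

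**Figure D1:**
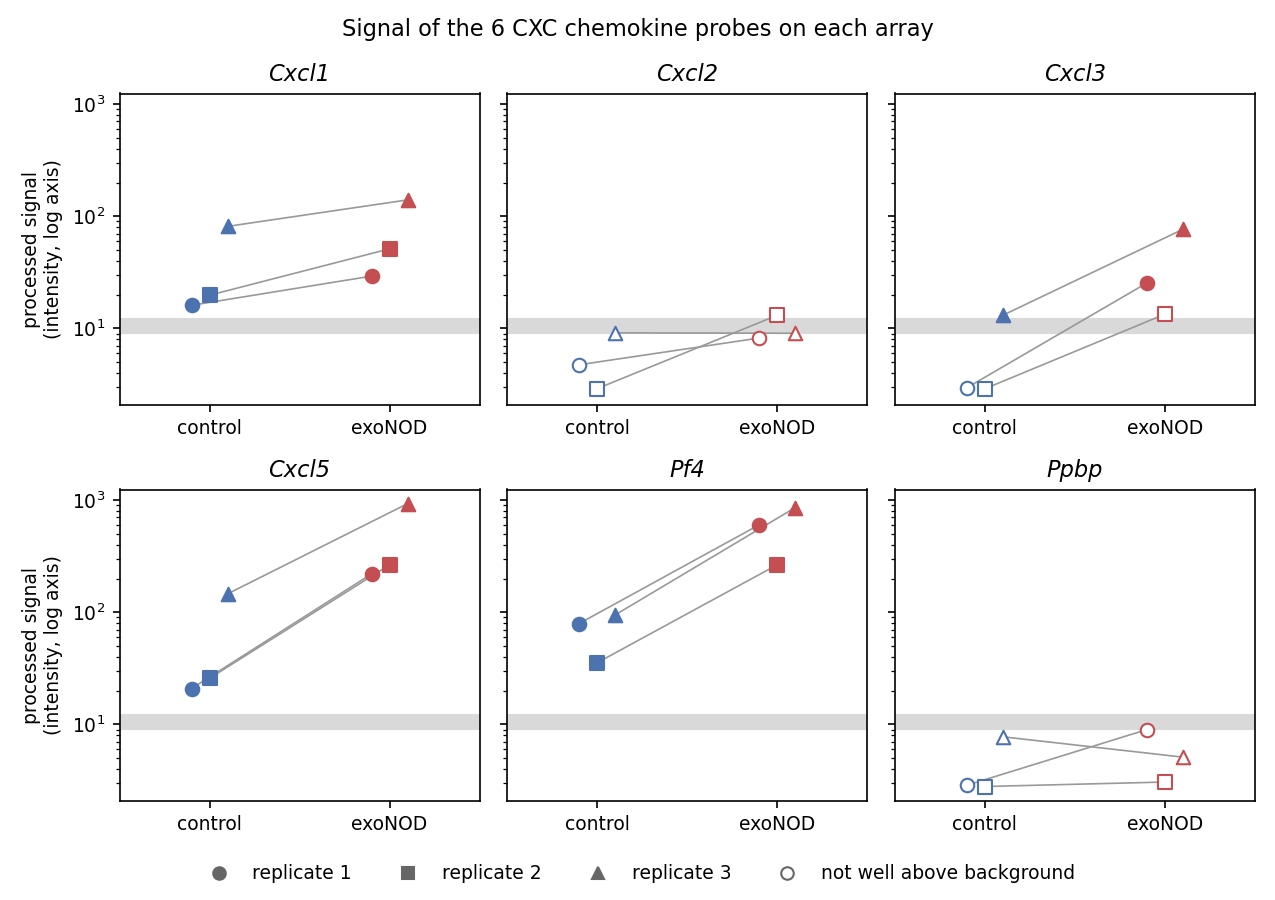
Processed signal (intensity, log axis) of each of the 6 chemokine probes on the 3 control and 3 exoNOD arrays; lines join arrays of equal replicate number, filled points are well above background and open points are not, and the grey band spans, over the arrays, the lowest signal of any spot well above background. Pf4 and Cxcl5 show no overlap between the groups, Cxcl1 overlaps through control 3, and Cxcl2 and Ppbp have open points only. Over all genes, 14.6% had all 3 exoNOD arrays above all 3 controls.

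Over the 6 arrays the levels of Cxcl1 and Cxcl5 had a Pearson r of 0.870, and their deviations from the group means an r of 0.985, since array 3 was high in both groups. Pf4 had r values of 0.584 with Cxcl1 and 0.883 with Cxcl5, and 0.512 and 0.603 for the deviations. Of 939 other genes with varying levels, 87.2% had a lower r with Cxcl1 than Cxcl5 had, 52.8% a lower r with Cxcl1 than Pf4 had, and 83.0% a lower r with Cxcl5 than Pf4 had. The r of Cxcl1 and Pf4 was thus near the middle of those genes. These are descriptions over 6 arrays that share scans and the group difference.

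**Figure D2:**
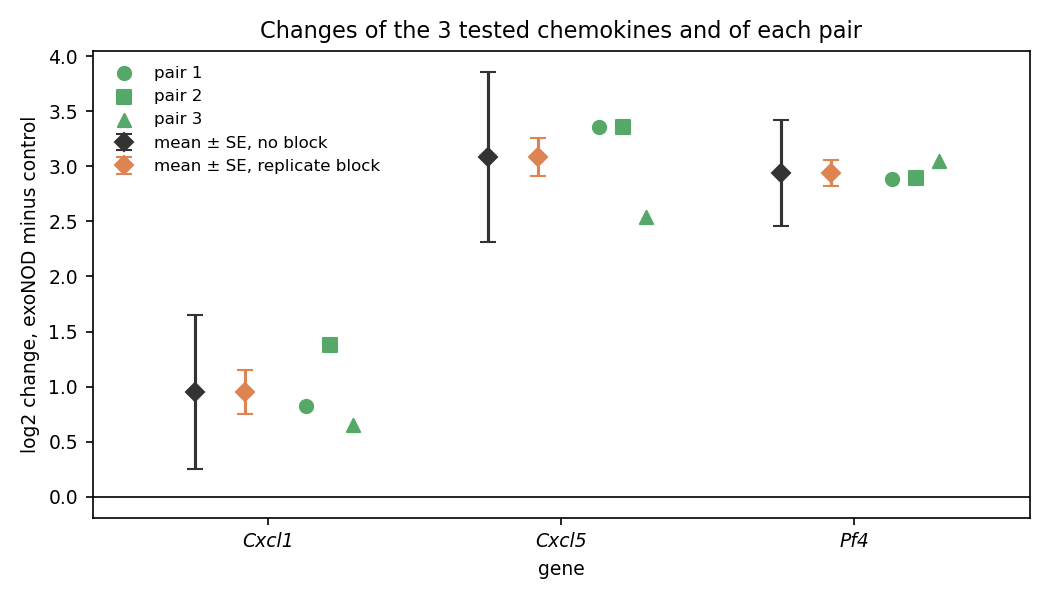
Change in log2 level, exoNOD minus control, for Cxcl1, Cxcl5 and Pf4. Shown are the mean and its standard error with and without the replicate block, and the 3 pairs of equal number. The pairs of Pf4 lie close together near 2.94, whereas those of Cxcl1 lie at 0.826, 1.374 and 0.655.

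Genes with the most similar pattern over the 6 arrays were sought among 939 named genes. For Pf4 they were Rarres2 (r = 0.998), which codes for the chemoattractant chemerin, Ldha (0.993), the lactate dehydrogenase subunit, Defb8 (0.989) and Orc1 (0.989). Rarres2 signals were 853, 584 and 883 in control and 2040, 1390 and 2220 in exoNOD cells, a log2 change of 1.22 (limma adjusted p 0.0828, with the block 0.000132). For Cxcl5 they were Foxf2 (0.992), a transcription factor of mesenchymal cells, B4galnt2 (0.991), Oc90 (0.990) and Pxdc1 (0.986). For Cxcl1 they were Ndrg2 (0.989), Bcl3 (0.988), an atypical IκB protein, and the transcriptional repressors Bhlhe40 (0.988) and Bcl6 (0.988). The measure includes the difference between the groups, and nothing was tested.

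The other genes of the pathway were taken from a list of 62, of which 61 were on the array and 49 were tested. Of these, 38 were higher and 11 lower, with a median change of 0.28. For numbers of genes that were higher or lower, here and below, no share over all genes was counted. In limma without a block 0 of the 49 passed and 9 had an unadjusted p under 0.05, a share near the 16.6% of all genes. With the block 10 rose and 1 fell, beside the 6.93% of all genes that rose.

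Of 6 tested other CXC ligands, 1 rose and 1 fell with the block, with a median of 0.41. Cxcl9, an interferon-induced ligand of Cxcr3, rose by 0.63 (SE 0.213, limma adjusted p 0.234, with the block 0.0466). Cxcl12, the ligand of Cxcr4, fell by 0.68 (SE 0.324, limma adjusted p 0.324, with the block 0.0165). The B cell attractant Cxcl13 had a change of 0.52 and Cxcl14 also 0.52, and neither passed. Cxcl15, which lies between Cxcl3 and Cxcl1 in the cluster, had signals of 2.03 to 2.74 and was above background on no array.

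Of 7 tested receptors and binding partners, 1 rose with the block, with a median of 0.045. The main neutrophil receptor Cxcr2 was above background on 1 exoNOD array only, with signals of 6.06 to 13.9, and Cxcr3 on 1 control and 1 exoNOD array, with 8.83 to 16.0. Cxcr1 had a change of 0.045 (SE 0.175, limma adjusted p 0.912). Ackr1, which binds chemokines on endothelium without signalling, had 0.59 (SE 0.213, adjusted p 0.248, with the block 0.0689). Sdc1, a heparan sulphate proteoglycan, rose by 0.67 (SE 0.259, adjusted p 0.266, with the block 0.0159). The other changes named here were −0.084 for Gpr35, −0.078 for Sdc2 and 0.063 for Sdc3.

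Of 15 inducing cytokines and receptors, 13 were higher, and 2 rose with the block. Il1a, Tnf and Il17a were dim, with signals of 10.6 to 40.1, 16.1 to 36.4 and 17.2 to 33.0. Il1a was above background on 2 of 3 control arrays. Il1b, which codes for interleukin 1 beta, had signals of 530, 533 and 981 in control and 1030, 748 and 2130 in exoNOD cells. As with Cxcl1 and Cxcl5, the third array was the highest of each group. Its change was 0.80 (SE 0.385, limma adjusted p 0.331, with the block 0.00274). Tnfrsf1b, a receptor of tumour necrosis factor, rose by 0.76 (SE 0.233, adjusted p 0.218, with the block 0.0302). Il17a had 0.55 (adjusted p 0.263, with the block 0.150) and the interleukin 1 receptor Il1r1 had −0.23 (adjusted p 0.440).

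Of 8 transcription factors and their inhibitors, 1 rose with the block, with a median of 0.052. Cebpd, an acute-phase transcription factor, had signals of 8780, 10600 and 32700 in control and 15900, 17000 and 63900 in exoNOD cells, and a change of 0.78 (SE 0.615, limma adjusted p 0.534, with the block 0.00142). Nfkbiz, Cebpb and Nfkb2 had changes of 0.36, 0.13 and −0.11, and did not pass. Of 6 genes of mRNA decay and feedback, 2 rose with the block: Zc3h12a, an RNase that degrades inflammatory mRNAs, by 0.74 (adjusted p 0.335, with the block 0.0272), and the NF-kB inhibitor Tnfaip3 by 0.37 (adjusted p 0.603, with the block 0.0360). Zfp36, which codes for tristetraprolin, had 0.47 (with the block 0.0895), and Khsrp had −0.18.

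Of 10 genes that the same stimuli induce in many cells, 3 were tested and 3 rose with the block, with a median of 1.51. Il6 signals were 54.1, 56.5 and 393 in control and 216, 318 and 1050 in exoNOD cells, with a change of 1.91 (SE 0.815, limma adjusted p 0.292, with the block 0.0008). The groups of Il6 overlapped through control 3, as those of Cxcl1 did. Ptgs2, the inducible cyclooxygenase, rose by 1.51 (SE 0.411, adjusted p 0.181, with the block 0.00214), and the siderophore-binding Lcn2 by 0.78 (SE 0.281, adjusted p 0.248, with the block 0.0243). Csf2, Csf3, Saa3, S100a8 and Ccl20 were above background on no array. Of 4 tested proteases that cut the ligands, 0 passed in limma with or without the block, and 0 had an unadjusted p under 0.05; the changes were 0.46 for Mmp9 (above background on 2 of 3 control arrays), 0.35 for Elane, 0.24 for Ctsg and −0.22 for Dpp4.

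**Figure D3:**
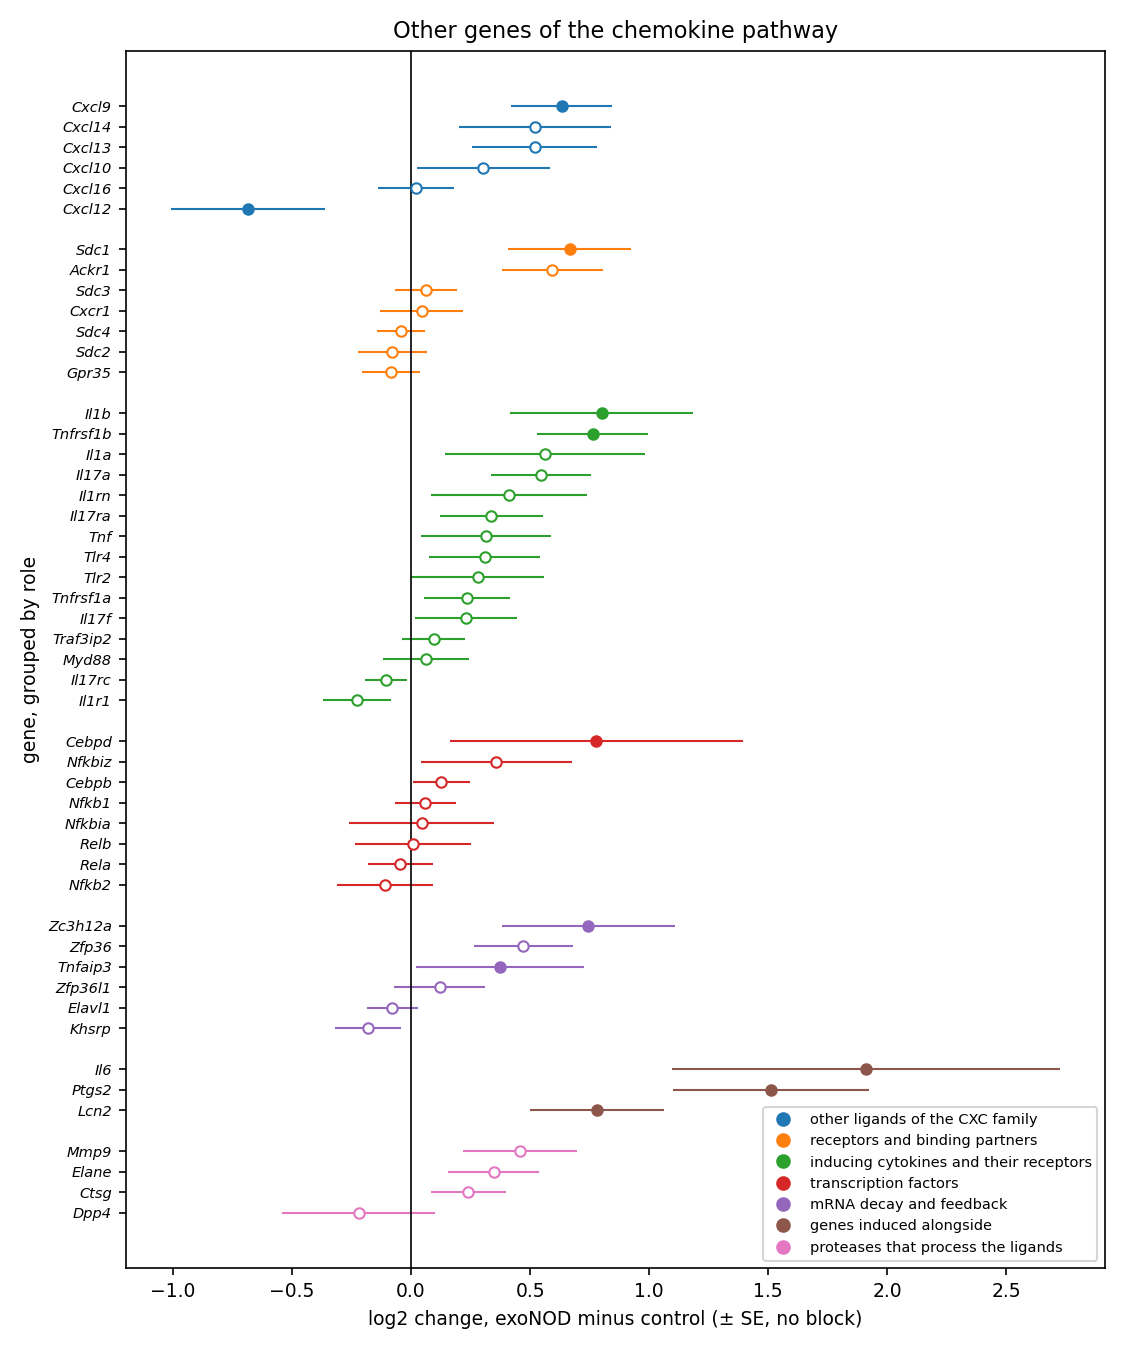
Change in log2 level, exoNOD minus control, with its standard error without a block, for the 49 tested pathway genes grouped by role; filled points have an adjusted p under 0.05 with the replicate block and open points do not. Il6 and Ptgs2 lie farthest to the right, at 1.91 and 1.51, and Cxcl12 is the filled point below 0.

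Markers of cells that could carry these transcripts were read beside the members. Of 13 platelet and megakaryocyte genes 10 were tested and 10 were higher, with a median of 0.39; 0 passed in limma with or without the block, and 4 had an unadjusted p under 0.05, against 16.6% of all genes. The 4 were Tubb1 with a change of 0.65, Treml1 with 0.58, Gp1bb with 0.51 and Clec1b with 0.42. The summed signal of all 13 genes, relative to the 75th percentile, was 0.686 to 0.802 on the control and 0.910 to 0.964 on the exoNOD arrays. These probes were mostly dim. The median signal of all spots was also higher in exoNOD, at 121 to 141 against 112 to 117 on the control arrays. A rise of dim spots in general was not separated from a rise of these genes. Sums here and below cover all genes of a list that are on the array, tested or not. The defining integrin Itga2b had a change of 0.064 (adjusted p 0.898), Gp9 and Nfe2 were above background on no array, and Gp6 on 1 exoNOD array. The part of platelet RNA in the Pf4 result was not tested.

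Of 12 neutrophil genes 4 were tested, 4 were higher and 0 passed in limma with or without the block, with 0 at an unadjusted p under 0.05. The summed signal was 40.7 to 45.9 in control and 45.7 to 50.0 in exoNOD cells. Csf3r made up the greater part of it, with signals of 28900 to 31400 in control and 33100 to 35900 in exoNOD cells. Elane came next, at 5210 to 7340 and 6120 to 9940. Of the dim neutrophil genes, S100a8 and Ngp were above background on no array, Retnlg on 1 array of each group, S100a9 on 2 of each, and Ltf, Mmp8 and Cxcr2 on 1 exoNOD array. On exoNOD 3 the signals were 114 for S100a9, 64.4 for Ltf and 19.6 for Mmp8, the highest of the 6 arrays for each. Csf3r was also highest there. The other genes of the list on the array were highest elsewhere: S100a8, Mpo, Elane, Camp, Cxcr2 and Ngp on exoNOD 2, and Retnlg on control 2. Of 10 tested macrophage genes 8 were lower, with a median of −0.054, and the summed signal was 28.4 to 30.5 in control and 22.1 to 24.2 in exoNOD cells. Itgam made up the greater part of that sum, with signals of 13900 to 16400 in control and 10600 to 11800 in exoNOD cells. With the block Adgre1, which codes for F4/80, fell by 0.87 (adjusted p 0.0157) and Itgam fell by 0.50 (0.00889). The mannose receptor gene Mrc1 had signals of 12.2, 10.1 and 20 in control and 44.8, 80.2 and 75 in exoNOD cells. It was above background on 1 control array and 3 exoNOD arrays, so it was kept through the group where it is high. The part of neutrophils and macrophages in the Pf4, Cxcl1 and Cxcl5 results was not tested.

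Of 8 fibroblast and stellate cell genes, 5 were higher and 2 rose with the block, among them Pdgfra by 1.23 (adjusted p 0.0130), and the summed signal was 43.0 to 65.6 in control and 55 to 77.8 in exoNOD cells. Of 6 duct genes 4 were higher and 1, Spp1, rose with the block by 1.56 (0.00291); the sums were 5.76 to 7.73 and 6.87 to 8.70. The fibroblast and duct sums overlapped between the groups, as did those of the endothelial, T lymphocyte and mast cell genes, at 8.91 to 10.1 against 9.32 to 10.1, 14.2 to 19.0 against 14.2 to 18.5, and 0.544 to 0.616 against 0.492 to 0.610. Of 7 tested endothelial genes 4 had an unadjusted p under 0.05; with the block Egfl7 fell by 0.68 (adjusted p 0.00378), Cdh5 fell by 0.80 (0.0347), Emcn fell by 0.98 (0.0396) and Plvap rose by 0.43 (0.0211). Of 6 tested T lymphocyte genes 1, Lck, rose with the block by 0.63 (0.00343). Cd3e made up the greater part of the T lymphocyte sum, at 8540 to 12200 in control and 7880 to 11000 in exoNOD cells. Cd3g was above background on no array, and Cd3d on 2 exoNOD arrays only. The 8 beta cell genes, which define the labelled tissue, were above background on all 6 arrays. Their sums were 1060 to 1130 in control and 1040 to 1050 in exoNOD cells. Of them 8 were lower and 5 fell with the block, with a median of −0.34. Beside the counts of each cell type, 6.93% of all genes rose with the block and 8.76% passed in either direction. Without a block 16.6% of all genes had an unadjusted p under 0.05 in limma. The part of these other cell types in the chemokine results was not tested.

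**Figure D4:**
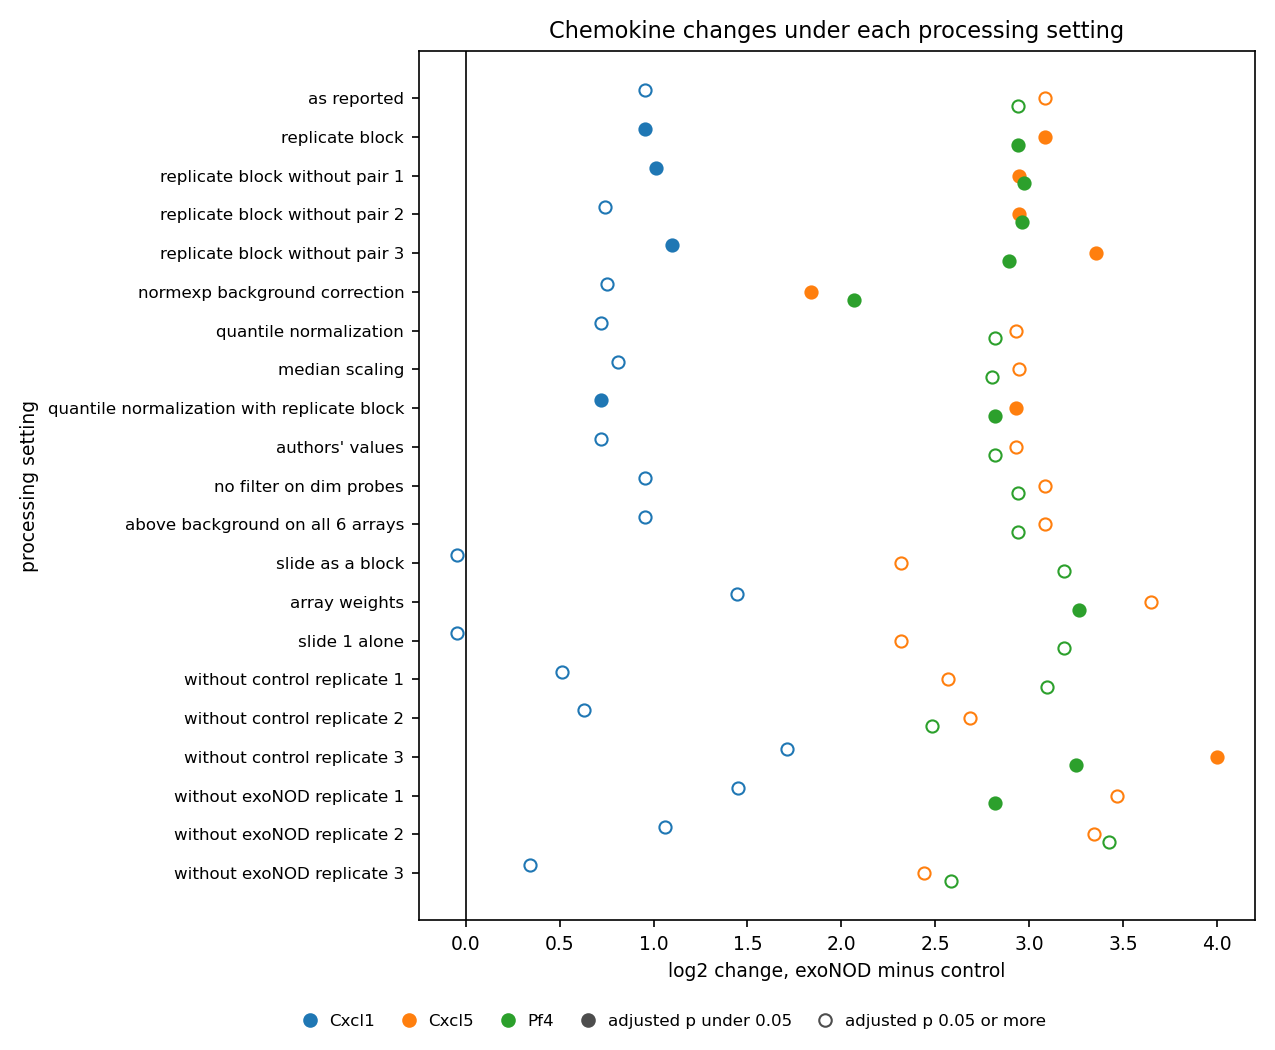
Change in log2 level, exoNOD minus control, of Cxcl1, Cxcl5 and Pf4 under each processing setting; filled points have an adjusted p under 0.05 and open points do not. Pf4 lies between 2.07 and 3.42 and Cxcl5 between 1.84 and 4.0, while Cxcl1 lies between −0.049 and 1.71.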

How the data were processed

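RNA of each culture was read on 1-colour Agilent mouse arrays with Cy3, 3 per group. The deposited processed signal is an intensity, background-subtracted within each array by Agilent Feature Extraction 11.0.1.1, per the file headers. The deposited spot flags (other values, 0 or 1) mark uneven or saturated spots and spots well above background. A deposited table of values normalized by the authors, on a log2 scale, served as an alternative.

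Spots marked uneven were left out, and spots of a probe were averaged. The 75th percentile of each array was subtracted from log2 signals. A probe was kept if every array of the control group, or every array of the exoNOD group, read it well above background; the brightest probe stood for its gene. Groups were compared with limma 3.58.1 (lmFit, eBayes with a trend) in R 4.3.3 with data.table (version 1.17.8), with Benjamini-Hochberg adjustment over 25780 genes and a threshold of 0.05. The analysis was tested on simulated data. Figures used matplotlib 3.10.9 in Python 3.11.15.

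The members, lists and tests were chosen with earlier results of these data known. All members were named. The rule also took, for each pathway role, up to 4 genes with the lowest unadjusted p, with Cxcl15, Cxcr1, Cxcr2, Cxcr3 and Ackr1 always, and the 4 genes most like each tested member, above background on all 6 arrays with an SD of at least 0.5. Cell markers were named where they lay beside a result.

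The replicate block is an alternative. The labels do not state the pairing; deviations from group means of same-numbered arrays had r values of 0.366, 0.281 and 0.480 across genes, above the minimum of 0.1 set for each pair, against −0.341 to 0.00873 for the other matches, so equal numbers were taken as pairs. Genes are not independent replicates. The other alternatives were normexp background correction (offset 50, on median spot signals, as mean signals were not used here), quantile and median scaling, other filters on dim probes, slide (inferred from scan time) as a block, array weights and leaving out each array or pair. The first slide alone was added after seeing the data. The number of arrays limits the precision.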

Additional observations from a re-analysis of the deposited data

How the results depend on the processing

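Without a block 0 of the 3 tested chemokines and 0 of the 49 pathway genes passed. With the replicate block these counts were 3 and 11. The blocked fit gave 3 and 15 without pair 1, 2 and 5 without pair 2, and 3 and 11 without pair 3. Over all 25780 genes it called 4167, 439 and 1735. Such fits have few degrees of freedom of their own, and limma borrows spread across genes. Without pair 1 and without pair 3 nearly all of the spread was borrowed, with unadjusted limma p-values of 2.24e-60 and 4.80e-44 for Cxcl5. Those p-values and counts are therefore not cautious ones. Quantile normalization with the replicate block gave 3 and 5, with 1252 of all genes passing. Of the chemokines, normexp gave 2 (Cxcl5 and Pf4) and array weights 1 (Pf4), with 156 and 308 of all genes passing. The normexp p-values also rest largely on borrowed spread. Leaving out 1 array at a time without a block gave between 0 and 2 chemokines, with 2 without control replicate 3 and 1 without exoNOD replicate 1. It gave between 0 and 2 pathway genes, with 2 without exoNOD replicate 1. Over all genes, 76 passed without control replicate 3 and 1271 without exoNOD replicate 1. With slide as a block, and on the first slide alone, the change of Cxcl1 turned to −0.049. Those 2 fits rest on exoNOD replicate 1 for the difference, and 0 genes passed in limma, with 929 and 1143 at an unadjusted p under 0.05. Over 20 alternatives Cxcl1 ranged from −0.049 to 1.71, Cxcl5 from 1.84 to 4.0 and Pf4 from 2.07 to 3.42; Cxcl5 and Pf4 were higher in exoNOD cells in each. The block moved the count over all genes from 27 to 2259. With no filter on dim probes the blocked adjusted p of Cxcl1 was 0.0589. The median change of all genes was 0.349 with normexp and −0.106 with median scaling, against 0.035. Cxcl2 and Ppbp, below background on 6 of 6 arrays, and Cxcl3 were limited by signal over background. Each member had 1 probe, so other probes were not run. Under every other alternative run, Cxcl1, Cxcl5 and Pf4 kept their direction and their side of the threshold; the cause of the changes was not tested.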

Other observations

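All genes with the NF-kB letters GGAATTTCC in a window of 300 bases around their start were read together, with Cxcl1, Cxcl2 and Cxcl3 among them. Of 87 such genes 40 were tested, with a median log2 change of 0.036, against −0.009 over the 13685 tested genes that have a promoter window. With the replicate block in limma 5 of the 40 rose (12.5%) and 1 fell, beside 6.05% that rose among all genes with a window. The 5 were Cxcl1, Acod1, which makes itaconate in activated macrophages, the adhesion molecule gene Icam1, the early response gene Ier3 and Tnfaip3; they were chosen after their values were seen. Without the members 4 of 39 rose (10.3%), with a median of 0.027. Without a block 0 of the 40 passed in limma, and 2 (5%) had an unadjusted p under 0.05, below the 14.9% of all genes with a window.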
